A study of Equus caballus with 6 samples.

Results

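A set of 5 short sequences from the testis of the Mongolian horse, together with the sequences that share a stretch with them, was examined in 3 libraries of mature and 3 libraries of immature testis. These reference sequences, uniq_222460, uniq_170669, uniq_173892, uniq_3130864 and uniq_5134990, were chosen by their counts in these same libraries, as leading sequences outside tRNAs that were high in immature testis. Every sequence of the count table with an exact run of 20 nt or more in common with a reference was taken as a member. The members numbered 2393 of 4936717 distinct sequences and held 87220 of 17914237 reads. Sequences that overlapped uniq_170669 or uniq_173892 were put in 1 group, because these references share a stretch of 24 nt, which gave 4 groups with 1405 sequences for uniq_222460, 794 for uniq_170669 and uniq_173892, 146 for uniq_3130864 and 48 for uniq_5134990. No sequence fell into more than 1 group.

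The study followed piRNAs through testis development and spermatogenesis by small RNA sequencing of total RNA. The labels give the maturity of each testis but no age, treatment or stage of spermatogenesis, and they do not state that the libraries came from separate animals, so spreads and p-values describe these libraries. The table counts sequences of 25 to 32 nt, with 4032042 to 4550970 reads per mature library and 1382083 to 2347351 reads per immature library. Levels are given as CPM, the reads of a sequence scaled to the total of its library in this table, so 1 read is worth 0.22 to 0.248 CPM in a mature library and 0.426 to 0.724 CPM in an immature one. Where 0 reads were counted, up to 3 may be allowed for, which is at most 0.744 CPM in a mature and 2.17 CPM in an immature library, for counting error only. In whole testis, fewer cells that carry a small RNA and less of it per cell cannot be told apart.

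PIWI proteins of germ cells carry piRNAs as guides, which direct them to silence transposons and to cut other RNAs. A primary piRNA usually begins with uridine, written T here, and is trimmed to its final 3′ end after its 5′ end is set. In the ping-pong cycle a piRNA guides a cut that sets the 5′ end of another piRNA on the opposite strand, with the pair overlapping by 10 nt at their 5′ ends, so the partner tends to have adenine at position 10. Fragments of ribosomal and transfer RNA fall in the same size range and can be counted with piRNAs when small RNAs are selected by length. The name of the fifth reference as a 28S rRNA fragment came with the choice of members, and no horse rRNA sequence was used here to check it. For the other 4 references no transcript, repeat or locus of origin was looked up, because no horse genome was used here, so they are called by their identifiers.

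The sequences are printed 5′ to 3′ as in the table, with T for U. In the uniq_222460 group, the reference and the 5 leading other members are shown because they differ mainly in where they begin. Capitals mark the stretch shared with the reference.

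uniq_222460: TTGCTGAGGAAGACTGGCCCTGAGCTA
uniq_310670: TTGCTGAGGAAGACTGGCCCTGAGCT
uniq_287453: ttTTGCTGAGGAAGACTGGCCCTGAGCTA
uniq_359821: ttTTGCTGAGGAAGACTGGCCCTGAGC
uniq_356439: ttTTGCTGAGGAAGACTGGCCCTGAGCT
uniq_266486: tTTGCTGAGGAAGACTGGCCCTGAGCTA

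In the group of uniq_170669 and uniq_173892 the sequences show separate starts around a common core. Capitals mark the stretch that both references share, as far as each sequence holds it.

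uniq_170669: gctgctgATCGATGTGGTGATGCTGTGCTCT
uniq_173892: ATCGATGTGGTGATGCTGTGCTCTcc
uniq_172762: ctgctgATCGATGTGGTGATGCTGTG
uniq_172425: ctgctgATCGATGTGGTGATGCTGTGC
uniq_173724: ATCGATGTGGTGATGCTGTGCTCTccc
uniq_170749: gctgctgATCGATGTGGTGATGCTGTG
uniq_174650: ctgctgATCGATGTGGTGATGCTGTGCTCT

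The leading members of the uniq_3130864 group differed at the ends rather than inside. Capitals mark the last base of the reference and, in the others, the bases that differ from it or lie beyond it.

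uniq_3130864: ggttctgatgtcaaaacttaagttctgacC
uniq_4595452: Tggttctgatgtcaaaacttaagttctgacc
uniq_4595443: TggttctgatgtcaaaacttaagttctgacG
uniq_3130856: ggttctgatgtcaaaacttaagttctgacA
uniq_4595455: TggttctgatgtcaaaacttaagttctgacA
uniq_2488046: TgttctgatgtcaaaacttaagttctgacT

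The leading members around uniq_5134990 kept 1 start and varied at the 3′ end. Capitals are used as in the set before.

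uniq_5134990: tggaagtcggaatccgctaaggagtgT
uniq_5134978: tggaagtcggaatccgctaaggagtgC
uniq_4279950: tggaagtcggaatccgctaaggagtgtGT
uniq_4508816: tggaagtcggaatccgctaaggagtgG
uniq_5134985: tggaagtcggaatccgctaaggagtgA
uniq_4279955: tggaagtcggaatccgctaaggagtgtGC

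The levels of the references and their groups are descriptions, since the references were chosen on this contrast, and no test is given for them. Together the 4 groups took 0.106%, 0.148% and 0.11% of the reads in the mature libraries and 2.13%, 1.06% and 1.2% in the immature libraries. The mean share was 0.121% ± 0.0231 in mature testis, against 1.46% ± 0.582 in immature testis (SD, n = 3 each). The lowest immature share stood well above the highest mature share, and immature replicate 1 stood above both other immature libraries.

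The uniq_222460 group was the most varied in sequence. Its summed level was 277, 463 and 292 CPM in mature testis, against 4505, 2502 and 3553 CPM in immature testis. These gave means of 344 ± 103 CPM in mature testis, against 3519.9 ± 1002 CPM in immature testis (SD, n = 3 each), so the immature mean was 10.2 times the mature mean. The reference itself had 79, 268 and 145 reads in the mature and 1936, 1497 and 1120 reads in the immature libraries. Its mean level was 39.1 ± 24.5 CPM in mature testis, against 935 ± 409 CPM in immature testis, 23.9 times the mature mean, and 36.7 times without mature replicate 2, which held the most reads of the mature libraries. Of the 1405 members, 781 had a single read in all libraries together.

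Sequences at and around the 5′ end of uniq_222460 did not share 1 ratio. The 26 nt form uniq_310670, which starts with the reference and lacks its last base, averaged 19.5 ± 11.0 CPM in mature testis, against 330.2 ± 32.2 CPM in immature testis, a ratio of 16.9. uniq_287453, which starts 2 nt upstream and ends with the reference, had 109, 119 and 105 reads in the mature and 382, 267 and 271 reads in the immature libraries. Its means were 26.3 ± 3.22 CPM in mature testis, against 192 ± 81.5 CPM in immature testis, and the ratio was 7.29. The groups of libraries did not overlap for either sequence. uniq_359821 and uniq_356439, which also start 2 nt upstream, had ratios of 8.91 and 7.44, whereas uniq_266486, which starts 1 nt upstream, had a ratio of 18.3, which was 28.4 without mature replicate 2.

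The group of uniq_170669 and uniq_173892 held the most reads, 41074. Its level was 429, 545 and 501 CPM in mature testis, against 11368, 5016 and 5014 CPM in immature testis. The means were 492 ± 58.3 CPM in mature testis, against 7133 ± 3668 CPM in immature testis (SD, n = 3 each), with the immature mean 14.5 times the mature one. Immature replicate 1 lay at more than double the level of the other immature libraries, which were close to each other. uniq_170669, of 31 nt, had 183, 190 and 126 reads in the mature and 1959, 1231 and 610 reads in the immature libraries. uniq_173892, of 26 nt, had 187, 222 and 147 reads in the mature and 1973, 895 and 498 reads in the immature libraries.

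Both references of that group depended on immature replicate 1 for the size of the difference. uniq_170669 averaged 39.7 ± 10.5 CPM in mature testis, against 786 ± 549 CPM in immature testis, a ratio of 19.8, which was 11.9 without that library. uniq_173892 averaged 44.2 ± 11.4 CPM in mature testis, against 716 ± 616 CPM in immature testis, a ratio of 16.2, which was 8.17 without it. Immature replicates 2 and 3 were still above all mature libraries for both references. When reads that differ from uniq_170669 only in the first base were counted with it, its ratio was 12.3, from 65.5 ± 13.3 CPM in mature testis, against 804 ± 574 CPM in immature testis. That count was added after the data were seen.

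Among the forms of this group that start 1 nt after uniq_170669, the shorter ones, uniq_172762 and uniq_172425, spread less between immature libraries. uniq_172762 averaged 28.5 ± 7.61 CPM in mature testis, against 512 ± 184 CPM in immature testis, and uniq_172425 29.1 ± 5.5 CPM in mature testis, against 428 ± 76.5 CPM in immature testis. Their ratios were 17.9 and 14.7. uniq_170749, which starts with uniq_170669 and lacks its last 4 nt, had the widest ratio of the leading members printed for the 4 groups, 38.9, from 9.92 ± 2.35 CPM in mature testis, against 386 ± 222 CPM in immature testis. uniq_173724 and uniq_174650 had ratios of 13.6 and 11.5, and without immature replicate 1 they were 6.9 and 7.17.

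The uniq_3130864 group stood at 267, 407 and 277 CPM in mature testis, against 4308, 2115 and 2149 CPM in immature testis. The means were 317 ± 77.9 CPM in mature testis, against 2857 ± 1256 CPM in immature testis (SD, n = 3 each), a ratio of 9.02. The reference had 122, 249 and 182 reads in the mature and 1325, 1130 and 741 reads in the immature libraries, and its ratio was 14.8, from 43.7 ± 16.5 CPM in mature testis, against 649 ± 269 CPM in immature testis. Again the immature libraries were all above the mature ones, with replicate 1 the highest.

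One named member of this group did not follow the others. uniq_4595452, the reference with a T added at its 5′ end, averaged 56.3 ± 11.5 CPM in mature testis, against 584 ± 232 CPM in immature testis. uniq_4595443, uniq_3130856 and uniq_4595455 had ratios of 7.01, 9.79 and 8.4. uniq_2488046, which begins with T in place of the first G and ends in T, had 190, 301 and 245 reads in the mature and 367, 39 and 17 reads in the immature libraries. Its levels were 45.9, 74.7 and 53.8 CPM in mature testis, against 266, 16.6 and 11.6 CPM in immature testis. The groups thus overlapped: immature replicate 1 was above all mature libraries and the other immature libraries were below them. Without that library its mean was 58.1 CPM in mature testis, against 14.1 CPM in immature testis, the opposite order.

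The uniq_5134990 group, the smallest, stood at 84.3, 62.3 and 25.9 CPM in mature testis, against 1135, 957 and 1307 CPM in immature testis. The means were 57.5 ± 29.5 CPM in mature testis, against 1133 ± 175 CPM in immature testis (SD, n = 3 each), a ratio of 19.7. The reference had 196, 145 and 67 reads in the mature and 1136, 1575 and 1289 reads in the immature libraries, which is 32.7 ± 16.6 CPM in mature testis, against 791 ± 109 CPM in immature testis, a ratio of 24.2. In this group the spread was wide among mature libraries, with replicate 3 the lowest, and immature replicate 1 did not stand apart. The 29 nt form uniq_4279950 had a ratio of 9.33, from 9.37 ± 4.94 CPM in mature testis, against 87.4 ± 10.01 CPM in immature testis, and the 27 nt form uniq_5134978, with another last base, one of 22.7. For uniq_4279955, the other 29 nt form, the ratio was 8.23. For uniq_4508816 and uniq_5134985, which differ from the reference in the last base, it was 14.4 and 14.0, and 21.8 and 25.1 without mature replicate 1.

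Across the members the direction was not uniform. Of 145 members with at least 50 reads other than the references, 132 had every immature library above every mature one, 0 had the opposite order and 13 had overlapping groups. In the whole table, 10.4% of the 34510 sequences of that depth had every immature library above every mature one and 83.3% had the opposite order. The members' median ratio of immature to mature mean was 12.6. These members share long stretches with references chosen on the same contrast, so nothing is read from the count.

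In the fit across the whole table, with edgeR's quasi-likelihood test, TMM scaling and a Benjamini-Hochberg adjusted p under 0.05, 180 of the 2393 members passed the filter on low counts, and 180 were called lower and 0 higher in mature testis. The background share of calls was 21.9% lower and 8.41% higher among 31788 sequences tested. Scaled by library totals alone, 173 members were called lower and 0 higher, against 20.3% lower and 77.7% higher over all sequences tested. All other members lacked enough reads in enough libraries for the filter. They included uniq_5223550, uniq_9327390 and uniq_3510948, whose reads lay mostly in a single library. Such members could not be called in either direction. A member could pass the filter through the libraries in which it was abundant, so the counts are a description. The median log2 fold change, mature over immature, of the members tested was -6.38 with TMM and -3.75 with library totals, and that of all sequences tested was 0.62 and 3.15.

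The 13 members with overlapping groups fell into a few kinds. In the uniq_222460 group they were uniq_354222, uniq_2341112 and uniq_273637. The first, which starts 4 nt upstream with C, had 38, 47 and 58 reads in the mature and 26, 19 and 25 reads in the immature libraries, or 11.2 ± 1.83 CPM in mature testis, against 14.7 ± 5.76 CPM in immature testis. In the other groups, all 10 such members differed from the usual sequence at base 1 or base 4. They were named after their values were seen, and 7 of them are shown with the changed base in capitals.

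uniq_3418021: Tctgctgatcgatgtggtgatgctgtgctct
uniq_3510948: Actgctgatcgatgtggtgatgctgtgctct
uniq_7025106: Actgctgatcgatgtggtgatgctgtgc
uniq_10210827: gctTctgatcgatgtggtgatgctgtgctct
uniq_9831741: atcTatgtggtgatgctgtgctctcc
uniq_5223550: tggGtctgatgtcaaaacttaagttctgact
uniq_9327390: ggtGctgatgtcaaaacttaagttctgact

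Of the 7 sequences, 4 carry a change at base 4. uniq_10210827, which carries G4T relative to uniq_170669 (counted from 1 at the 5′ end), had 0 reads in every mature library and 74, 0 and 0 reads in the immature ones. uniq_9831741, which carries G4T relative to uniq_173892, had 0 mature reads and 71, 0 and 1 immature reads. uniq_5223550 had 2, 1 and 1 reads in the mature and 388, 1 and 0 reads in the immature libraries, and uniq_9327390 had 0 mature reads and 310, 0 and 1 immature reads. The reads of these 4 sequences thus lay almost entirely in immature replicate 1. Base-4 changes of uniq_5134990 had 0, 0 and 1 reads in the mature and 17, 8 and 3 reads in the immature libraries. As shares of these and the unchanged reads they were 1.47%, 0.505% and 0.232% in the immature libraries. In mature replicate 3 the 1 read was also 1.47%. For uniq_222460 they had 0 reads in each mature library and 23, 3 and 3 reads in the immature ones, or 1.17%, 0.2% and 0.267%. Among the immature libraries both shares were highest in replicate 1. The same library stood apart at that position over the 500 most abundant sequences of the table: reads that differed from one of them only at base 4 amounted to 0.179%, 0.219% and 0.193% in the mature libraries and to 1.96%, 0.206% and 0.223% in the immature libraries. Of the 3581 such reads in immature replicate 1, 1375 were changes of uniq_2076883, a tRNA-Gly-GCC fragment. The part of base-4 changes in the level of immature replicate 1 was not tested.

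Changes of the first base from G to T were frequent in the mature libraries and, at lower shares, in immature replicate 1. uniq_3418021, which carries G1T relative to uniq_170669, had 32, 58 and 36 reads in the mature and 56, 5 and 3 reads in the immature libraries, so that its CPM was highest in immature replicate 1. Among uniq_3130864 members that start at the reference's first base, those with T in place of G made up 45.7%, 42.3% and 43.6% of reads in the mature libraries and 13.9%, 2.03% and 1.64% in the immature ones. Most of these reads were uniq_2488046. Its counterpart that begins with G and ends in T is not among the sequences analysed here. These percentages are therefore shares of the listed forms and no rate of change from G to T. Among the 25 sequences that begin with G in the 500 most abundant of the table, reads with T instead amounted to 11.8%, 12.0% and 12.4% in the mature and 2.06%, 0.166% and 0.172% in the immature libraries. The excess in mature testis was therefore not limited to the members. The pooled share leans on 1 tRNA-Gly-GCC fragment, uniq_2076883. Its own form with T first gave 6483 of 8596, 793 of 2143 and 1547 of 3250 of these reads in the mature libraries.

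uniq_3510948, which carries G1A relative to uniq_170669, had 2, 4 and 197 reads in the mature and 7, 4 and 1 reads in the immature libraries. uniq_7025106 had 0, 1 and 65 reads in the mature and 0, 1 and 1 reads in the immature libraries. In mature replicate 3, members with A first made up 48.2% of the 772 reads at the start of uniq_170669 (95% exact binomial interval 44.6% to 51.8%), against 0.528% and 1.04% in the other mature libraries and 0.334%, 0.346% and 0.304% in the immature libraries. For G-starting sequences among the 500 most abundant, the share with A instead was 2.46% in that library, against 1.24% and 1.55% in mature replicates 1 and 2 and 0.22% to 0.348% in immature testis. The large share with A was thus seen in 1 mature library at 1 start site of this group.

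The make-up of each group was compared next, with the reference sequences left out, by the exact two-sided permutation test over libraries. The smallest p that 3 against 3 libraries can give is 0.1, and 12 tests were made, so no Benjamini-Hochberg adjusted value was below 0.133 and none passed 0.05. The ends compared are those of references chosen as high in immature testis. Other members include shorter forms and single-base variants of the references, such as uniq_310670. Leaving the references out therefore does not free these measures from that choice, and the differences are descriptions. Members of the uniq_222460 group other than the reference had a mean length of 28.3 ± 0.164 nt in mature testis, against 27.6 ± 0.0971 nt in immature testis (exact permutation p = 0.1, adjusted 0.133), and the libraries did not overlap. The share of their reads that began at the reference's first base was 16.2% ± 4.08 in mature testis, against 31.2% ± 6.33 in immature testis (p = 0.1 by the exact permutation test, adjusted 0.133). For the reference's 3′ end the shares were 24.8% ± 0.266 in mature testis, against 29.7% ± 2.63 in immature testis (exact permutation p = 0.1, adjusted 0.133). In the whole table the mean length was 29.1 nt in mature testis, against 27.9 nt in immature testis, so the order of lengths in this group was that of the table.

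With the reference counted in, the starts of the uniq_222460 group were compared as shares of its reads, with no test. The reference's own start held 17.8%, 31.2% and 26.3% of the reads in the mature libraries and 48.1%, 53.3% and 46.3% in the immature ones. The start 2 nt upstream held 39.3%, 32.4% and 30.5% in the mature and 24.3%, 20.7% and 26.9% in the immature libraries, and the start 4 nt upstream 9.42%, 7.56% and 11.7% in the mature and 2.09%, 1.97% and 2.71% in the immature libraries. At each of these 3 starts the libraries of the groups did not overlap, with the reference's start lower and both upstream starts higher in mature testis. The reference, chosen as high in immature testis, held 10.7% ± 3.74 of the group's reads in mature testis, against 26.0% ± 4.79 in immature testis. Its choice therefore enters the order of these shares, and it also enters the base shares that follow. In mature testis 88.4% ± 1.41 of the group's reads began with T and 37.4% ± 5.51 had A at position 10, against 96.5% ± 0.363 and 57.7% ± 3.34 in immature testis. The reference has A at position 10 and the forms that start 1 or 2 nt upstream have G there.

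The group of uniq_170669 and uniq_173892 used 3 main starts, at the first base of uniq_170669, 1 nt after it, and 7 nt after it, where uniq_173892 begins. These held 32.8%, 34.2% and 22.9% of the group's reads, and the sequences there begin with G, C and A. T was the first base in 9.99% ± 0.517 of reads in mature testis, against 10.8% ± 2.47 in immature testis, far from 89.8% and 75.5% in the whole table. Members other than the references were 28.5 ± 0.151 nt long in mature testis, against 28.01 ± 0.212 nt in immature testis (exact permutation p = 0.1, adjusted 0.133). The share of reads at a reference 5′ end was 46.9% ± 0.57 in mature testis, against 43.3% ± 5.14 in immature testis (exact permutation p = 0.4, adjusted 0.4), and at a reference 3′ end 30.0% ± 3.4 in mature testis, against 25.4% ± 2.01 in immature testis (exact permutation p = 0.2, adjusted 0.218). Both shares overlapped between the groups.

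Among the listed sequences of the uniq_3130864 group 98.7% of reads ended at 1 position. Nearly all began at the reference's first base, with 42.8%, or 1 nt upstream, with 55.1%. Reads of members other than the reference began at its first base in 36.3% ± 1.31 in mature testis, against 24.1% ± 5.66 in immature testis (exact permutation p = 0.1, adjusted 0.133). This became 19.1% ± 0.3 in mature testis, against 21.7% ± 2.68 in immature testis when uniq_2488046, the form with T first, was left out, a step chosen after the data were seen (exact permutation p = 0.2). The mean length was 30.564 ± 0.012 nt in mature testis, against 30.711 ± 0.062 nt in immature testis, and the share at the reference's 3′ end was 97.6% ± 0.735 in mature testis, against 98.6% ± 0.154 in immature testis (exact permutation p = 0.1 and adjusted 0.133 for each). Without uniq_2488046 the mean length was 30.716 ± 0.025 nt in mature testis, against 30.733 ± 0.034 nt in immature testis (exact permutation p = 0.5).

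The uniq_5134990 group was fixed at its 5′ end, where 99.7% of its reads began at the reference's first base. Among members other than the reference this share was 97.0% ± 2.49 in mature testis, against 99.3% ± 0.643 in immature testis (exact permutation p = 0.2, adjusted 0.218). At the 3′ end, 49.6% ± 0.499 of these reads ended with the reference in mature testis, against 65.0% ± 5.19 in immature testis (exact permutation p = 0.1, adjusted 0.133), without overlap, from 51 to 671 reads per library. Most of the rest ended 2 nt later. With the reference counted in, these 29 nt forms made up 21.5%, 20.3% and 20.3% of the group in the mature and 10.5%, 10.7% and 9% in the immature libraries. The denominator of these shares holds the reference, which was chosen as high in immature testis. The comparison without the reference is not free of that choice either. Of the 5690 reads that ended with the reference, 4408 were the reference and 1168 were its last-base variants. The exact 28 nt form was not among the sequences analysed here. The mean length was 27.94 ± 0.026 nt in mature testis, against 27.67 ± 0.109 nt in immature testis (exact permutation p = 0.1, adjusted 0.133).

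Single-base variants of the references were counted over the whole table. uniq_222460 had 55 of the 81 possible variants, uniq_170669 71 of 93, uniq_173892 44 of 78 and uniq_5134990 38 of 81, whereas uniq_3130864 had 1 of 90, which is uniq_3130856, with C30A. Changes of the last base held most variant reads of uniq_170669, uniq_173892 and uniq_5134990, with 61.2%, 80.9% and 85.9%, but 28.4% of those of uniq_222460, whose leading variant was A11G with 417 reads. Reads with a changed last base, as a share of these and the unchanged reference, were 28.3% ± 4.61 in mature testis, against 26.2% ± 6.48 in immature testis for uniq_170669. For uniq_3130864 they were 44.4% ± 5.21 in mature testis, against 34.7% ± 3.97 in immature testis, and for uniq_5134990 25.5% ± 1.63 in mature testis, against 20.2% ± 3.89 in immature testis. These shares were not tested, and their denominator holds the reference, which was chosen as high in immature testis. The share of uniq_3130864 counts C30A only.

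The uniq_3130864 group differed from the others in that its sequence with the most single-base variants is not listed. The sequence with the most single-base variants among its members was a 31 nt form that starts and ends in T, with 37 variants and 9827 reads, and the 30 nt form that ends in T had 13 variants with 7628 reads. Neither is among the sequences analysed here. In the other 3 groups, the sequence with the most such variants was itself listed. The level, ends, lengths and make-up tests of the uniq_3130864 group therefore describe the listed forms only. This limit holds for the other groups as well. Around uniq_5134990, a 26 nt and a 28 nt form with 4 variants each were not listed either.

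Beyond the members, sequences that overlapped a reference by at least 20 nt with 1 or 2 mismatches but no exact run of 20 nt were counted as relatives. The uniq_222460 group had 2885 relatives, 2.05 times its number of members, with 155 ± 41.1 CPM in mature testis, against 1491 ± 434 CPM in immature testis. The other groups had fewer relatives than members, with 285 for uniq_170669 and uniq_173892, 87 for uniq_3130864 and 38 for uniq_5134990. At the border of the rule, members of the uniq_222460 group with a shared run of exactly 20 nt numbered 151, at 4.97 CPM in mature testis, against 44.9 CPM in immature testis, and sequences with 19 nt numbered 317, at 15.7 CPM in mature testis, against 117 CPM in immature testis. For the other groups the numbers on both sides of the border were 53 and 56, 12 and 12, and 8 and 4.

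Sequences from the opposite strand were found for uniq_222460 and for none of the other groups, where an exact match of 20 nt to the reverse complement of a reference gave 0 reads. The 172 opposite-strand sequences held 571 reads, at 28.7, 31.99 and 24.4 CPM in mature testis, against 49.9, 20.9 and 64.3 CPM in immature testis. The means were 28.4 ± 3.82 CPM in mature testis, against 45.0 ± 22.1 CPM in immature testis (SD, n = 3 each), and the groups overlapped. Relative to reads of the same strand, opposite-strand reads made up 8.55% ± 1.74 in mature testis, against 1.25% ± 0.503 in immature testis; the denominator of this ratio is the level on which the reference was chosen. Of the opposite-strand reads, 95.8% began with T and 87.7% had A at position 10. The leading one is shown with the stretch that pairs with uniq_222460 in capitals.

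uniq_193020: tgtTAGCTCAGGGCCAGTCTTCCTCA

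It had 15, 24 and 17 reads in the mature and 13, 8 and 7 reads in the immature libraries, and its 5′ end lies 30 nt from that of the reference, so it is no 10 nt partner of it. Sequences whose 5′ ends overlapped that of uniq_222460 by 10 nt on the opposite strand had 274 reads, with 10.3 ± 1.22 CPM in mature testis, against 28.5 ± 5.6 CPM in immature testis. An overlap of 11 nt had 329 reads, overlaps of 12 to 26 nt had 0 to 64 reads each, and an overlap of 27 nt had 172 reads. Both 10 and 11 nt were thus above all longer overlaps counted. For uniq_170669, uniq_173892 and uniq_3130864 an overlap of 10 nt had 0 reads, and for uniq_5134990 it had 1 read. Yet uniq_3130864 had 97, 65 and 154 reads at overlaps of 13, 20 and 28 nt, without any opposite-strand match of 20 nt. The counts by overlap thus did not require pairing over the whole overlap and can hold short matches. Whether the reads at 10 and 11 nt exceed such matches was not tested.

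For comparison, the same rule was applied to uniq_2076883, a fragment of tRNA-Gly-GCC that is high in immature testis, and to uniq_5153807, which is high in mature testis. The first had 568 sequences at 11757 ± 10632 CPM in mature testis, against 101431 ± 28285 CPM in immature testis, and the second 379 sequences at 3420.4 ± 868 CPM in mature testis, against 139 ± 125 CPM in immature testis. Without mature replicate 1 the mature mean of the tRNA group was 5654 CPM, and without immature replicate 3 the immature mean of the uniq_5153807 group was 66.7 CPM. Like the uniq_5134990 group, the tRNA fragments kept 1 start, with 99.1% of reads at the reference's first base, against 44.7% in the uniq_222460 group. Neither comparison group had opposite-strand matches of 20 nt. First-base changes from G to T were seen there too. For uniq_2076883 itself they were 17.1%, 16.6% and 16.7% in the mature and 2.72%, 0.263% and 0.274% in the immature libraries. T began 35.5% ± 1.2 of all the tRNA fragment reads in mature testis, against 2.09% ± 1.53 in immature testis. The latter shares include reads that start 3 nt later, where the fragment has T (1.87% in mature and 0.584% in immature testis). Reads that ended 1 nt after the fragment made up 25.7% ± 1.49 of its group in mature testis, against 1.48% ± 0.906 in immature testis. The unchanged form with that end is not among the sequences analysed here. The shares with T first over all tRNA fragment reads thus describe listed forms and are no rate of change from G to T. These are descriptions, since the starting sequences of all groups were chosen by their levels in these libraries.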

How the data were processed

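Read counts, as whole numbers for each sequence in each library and with no normalization, make up the deposited table, judged by its header and values. The submitters' processing notes name Bowtie. Its version, the genome build and the criterion for calling piRNAs were "not given in the sources used here". All 6 count columns were used, 0 columns were left out and 0 rows named no sequence. The table totals were used as library sizes for CPM; they count listed sequences, not sequencing depth. The members, lists and tests were chosen with earlier results of these data known.

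Members were found by exact string matching (Python 3.11.15, pandas 2.3.3) and aligned to their reference by the longest shared stretch. The members named were the 5 references, in each group up to 5 others with the highest summed CPM and at least 50 reads, the leading opposite-strand sequence, and the references of 2 comparison groups; members named after their values were seen are marked. Counts were fitted with edgeR 4.0.16 in R 4.3.3 (quasi-likelihood, TMM factors, filterByExpr, Benjamini-Hochberg adjustment). DESeq2 1.42.0, other scalings and filters, other match lengths, a replicate block and the removal of each library were tried as alternatives. Make-up was tested by exact permutation (scipy 1.17.1). The fit was tested on simulated data. Without molecular identifiers, reads need not be independent molecules, and floors cover counting error only.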

Additional observations from a re-analysis of the deposited data

How the results depend on the processing

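Counts of calls depended on the scaling and the filter. All calls numbered 9648 with TMM, 31175 with library totals, 20642 with upper quartile factors, 2212 with a filter of 10 CPM in 3 libraries, 86206 with no filter beyond 6 reads and 10973 with DESeq2, in which 18 adjusted values were NA. Of these calls, TMM put 27.7% higher in mature testis and library totals put 79.3% there. Members called lower in mature testis numbered 180 with TMM, 93 with the 10 CPM filter, 449 with no filter and 179 with DESeq2. Leaving out 1 library gave 11035 to 15014 calls and 200 to 217 members. The highest count came without immature replicate 2. Refiltering each time left 29005 to 30208 sequences to test without a mature library and 51730 to 52980 without an immature one. With the replicate block there were 7484 calls and 177 members. The replicate numbers share only a number: the deviations of same-numbered libraries correlated at 0.02, -0.067 and 0.0074.

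TMM library sizes moved the log2 ratios of the group levels, mature over immature, to -5.98 for uniq_222460, -6.52 for uniq_170669 and uniq_173892, -5.82 for uniq_3130864 and -6.89 for uniq_5134990. With only sequences at the reference's 5′ end the uniq_222460 ratio was -4.25. Leaving out 1 library gave -4.06 to -3.35 for uniq_170669 and uniq_173892. Of 48 alternatives for group levels 42 differed from the value in the report by less than the spread between libraries or kept its call, and 0 reversed.

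Of 123 alternatives for the make-up, 5 reversed the sign of mature minus immature. With each sequence counted once, the mean length difference was -0.084 nt for uniq_170669 and uniq_173892 and 0.0838 nt for uniq_3130864, and in the uniq_3130864 group the difference was -7.99 percentage points at the 5′ end and 8.25 at the 3′ end. Without uniq_2488046 it was -2.56 points at the 5′ end. The cause was not tested, apart from the reads of uniq_2488046 given in the report. With 3 libraries a group no make-up test can pass 0.05, so these p-values say nothing about stability. Depth limits the uniq_5134990 group most, with as few as 51 reads in a library.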
